A study of Mus musculus with 4 samples.

Results

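Glucose production and insulin response in the liver were followed through 10 genes: the gluconeogenic enzymes G6pc, Pck1 and Fbp1, the regulators Ppargc1a and Foxo1, the insulin receptor Insr with its adaptors Irs1 and Irs2, and the insulin-like growth factor (IGF) binding proteins Igfbp1 and Igfbp2. They were taken as the non-control probes whose gene name in the scanner files equals one of these symbols, which gave 16 probes for 10 genes, of 55681 probes for 34761 genes in all. All livers came from male C57BL/6 mice, an inbred laboratory strain, that began a high-fat, high-sucrose diet at 5 weeks of age. They had been on it for 0, 5, 10 or 15 weeks and so were 5, 10, 15 and 20 weeks old. Each time point was read on 1 one-colour Agilent array. The submitters mention 4 mice at each time, and whether an array holds 1 of them or a pool is not given in the sources used here.

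With 1 array per time point no difference could be tested and none has a replicate check. Age and diet duration were confounded and cannot be told apart, and mice of matched age on a control diet were not analysed here. Values are scaled signals, meaning the background-subtracted fluorescence of a probe divided by the 75th percentile of its array, mostly on the log2 scale. An error beside a log2 difference combines the spot errors that the scanner software assigned on both arrays. Those were between 10.0% and 16.4% of the signal for the 16 probes and cover no spread between animals.

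Gluconeogenesis makes glucose from lactate, glycerol and amino acids when food is short. Pck1, phosphoenolpyruvate carboxykinase, starts it in the cytosol, Fbp1, fructose-1,6-bisphosphatase, acts midway, and G6pc, the catalytic subunit of glucose-6-phosphatase, releases free glucose. In fasting, glucagon acts through cyclic AMP and the coactivator Ppargc1a, and the factor Foxo1 binds the promoters of these genes. After a meal insulin binds Insr, the adaptors Irs1 and Irs2 pass the signal to the kinase Akt, and Akt drives Foxo1 out of the nucleus, which lowers G6pc, Pck1, Igfbp1 and Irs2 transcription.

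The promoters of 4 of the genes are shown because they hold short elements of the kinds through which these signals are known to act. A single annotated start is shown for each gene, and a gene can have other starts with other promoters. Whether the marked copies are the elements known to act was not examined. Each stretch holds the 250 bases before the transcription start, 5′ to 3′ on the strand of the gene, from RefSeq on build GRCm38.p6. Capitals mark the core of the insulin response element, CAAAACA, and the core of the cyclic AMP response element, TGACG, each searched on both strands (TGTTTTG and CGTCA in reverse).
G6pc, chr11:101367466-101367715, plus strand: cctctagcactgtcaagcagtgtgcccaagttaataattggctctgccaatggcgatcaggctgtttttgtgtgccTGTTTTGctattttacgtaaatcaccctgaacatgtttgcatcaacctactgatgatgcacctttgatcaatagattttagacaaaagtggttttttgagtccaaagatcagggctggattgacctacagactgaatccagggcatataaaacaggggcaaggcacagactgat
Igfbp1, chr11:7197537-7197786, plus strand: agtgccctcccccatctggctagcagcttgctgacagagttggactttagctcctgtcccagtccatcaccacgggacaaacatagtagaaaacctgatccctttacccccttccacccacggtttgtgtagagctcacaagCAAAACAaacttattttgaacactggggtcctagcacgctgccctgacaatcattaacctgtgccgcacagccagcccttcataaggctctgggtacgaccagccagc
Pck1, chr2:173152823-173153072, plus strand: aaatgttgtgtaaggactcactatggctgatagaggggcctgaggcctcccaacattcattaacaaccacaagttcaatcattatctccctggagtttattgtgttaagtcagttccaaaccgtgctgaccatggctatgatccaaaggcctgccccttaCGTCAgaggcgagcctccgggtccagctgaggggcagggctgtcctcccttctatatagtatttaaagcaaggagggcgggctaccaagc
Ppargc1a, chr5:51567726-51567975, minus strand: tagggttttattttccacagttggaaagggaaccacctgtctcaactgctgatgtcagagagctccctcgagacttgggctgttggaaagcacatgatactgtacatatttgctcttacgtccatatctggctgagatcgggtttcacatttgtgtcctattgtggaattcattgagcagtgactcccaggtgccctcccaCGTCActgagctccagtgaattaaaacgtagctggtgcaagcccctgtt

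The insulin response core began 174 bases before the start of G6pc and 108 bases before that of Igfbp1. The cyclic AMP core began 90 bases before the start of Pck1 and 49 bases before the start used for Ppargc1a. Of the 10 genes 9 had a window, with 10 windows in all. The insulin response core was also found before Irs2, at 37 bases, and before Irs1, at 111 and 32 bases. A cyclic AMP core lay 118 bases before Irs1. Of all 32851 windows of this length 5.56% held CAAAACA and 17.8% held TGACG. The FOXO motif GTAAACA, a different string from CAAAACA, was in 3.17% of all windows. The full cyclic AMP element TGACGTCA, which contains TGACG, was in 1.55%. Neither was in a window of these genes, and the absence of GTAAACA does not mean that other forms of FOXO site are absent. A match is a description of the letters and not a site of binding in these livers.

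All 16 probes were well above background on all 4 arrays, and none was saturated or marked as an outlier. Of the non-control spots of the arrays 44.9%, 44.5%, 44.6% and 48.3% were well above background at 0, 5, 10 and 15 weeks. The 10 hepatocyte markers checked, Alb and Apoa1 among them, were above background on every array. Their summed scaled signal was 12236, 10850, 11820 and 7879 at 0, 5, 10 and 15 weeks, so it was lowest at 15 weeks. In whole liver fewer cells of a type and less RNA per cell cannot be told apart. Scaling matters most at 15 weeks, where the median of 17562 measured genes stood at −0.25 against 0 weeks, compared with −0.02 at 5 weeks and −0.01 at 10 weeks. It also depended on brightness there, at −0.44 for the brightest 1757 genes, which include G6pc, Pck1, Fbp1, Igfbp1 and Igfbp2, and at −0.15 for 1756 genes of middling brightness. Differences of the 10 genes from 0 weeks at 15 weeks are therefore given relative to the median gene as well. Results were also computed in 7 other ways of scaling, normalizing or centring the arrays, of which the deposited table and the array median give equal values. The other 3 alternatives (the mean of probes, no background filter, locally bright spots left out) cannot move a gene with 1 bright probe on a clean stretch of the array, so they are not counted as support below.

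None of the 10 genes differed 2-fold from 0 weeks at 5 or at 10 weeks, where 3.87% (2.3% higher, 1.57% lower) and 4.45% (2.92% higher, 1.53% lower) of all measured genes did. At 15 weeks 1 of the 10 was at least 2-fold lower, G6pc, where 5.03% of all genes were, and 0 were at least 2-fold higher, where 5.76% were, which made 10.8% different in all. Against 5 weeks, when the mice were already adult, 2 of the 10 were at least 2-fold lower at 15 weeks, Ppargc1a and Igfbp2, where 4.3% of all genes were, and 0 were higher, where 4.08% were (8.37% different in all). Between 5 and 10 weeks 0 of the 10 differed 2-fold, beside 0.953% of genes higher and 1.13% lower (2.09% in all), and between 10 and 15 weeks 0 did, beside 3.95% higher and 4.06% lower (8.01% in all). The median of the 10 genes was −0.08 at 5 weeks, −0.10 at 10 weeks and −0.59 at 15 weeks against 0 weeks, beside −0.02, −0.01 and −0.25 for all genes. With 10 genes, 1 gene is 10% of them, so these counts are coarse beside the background shares, and nothing is read from them.

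**Figure D1:**
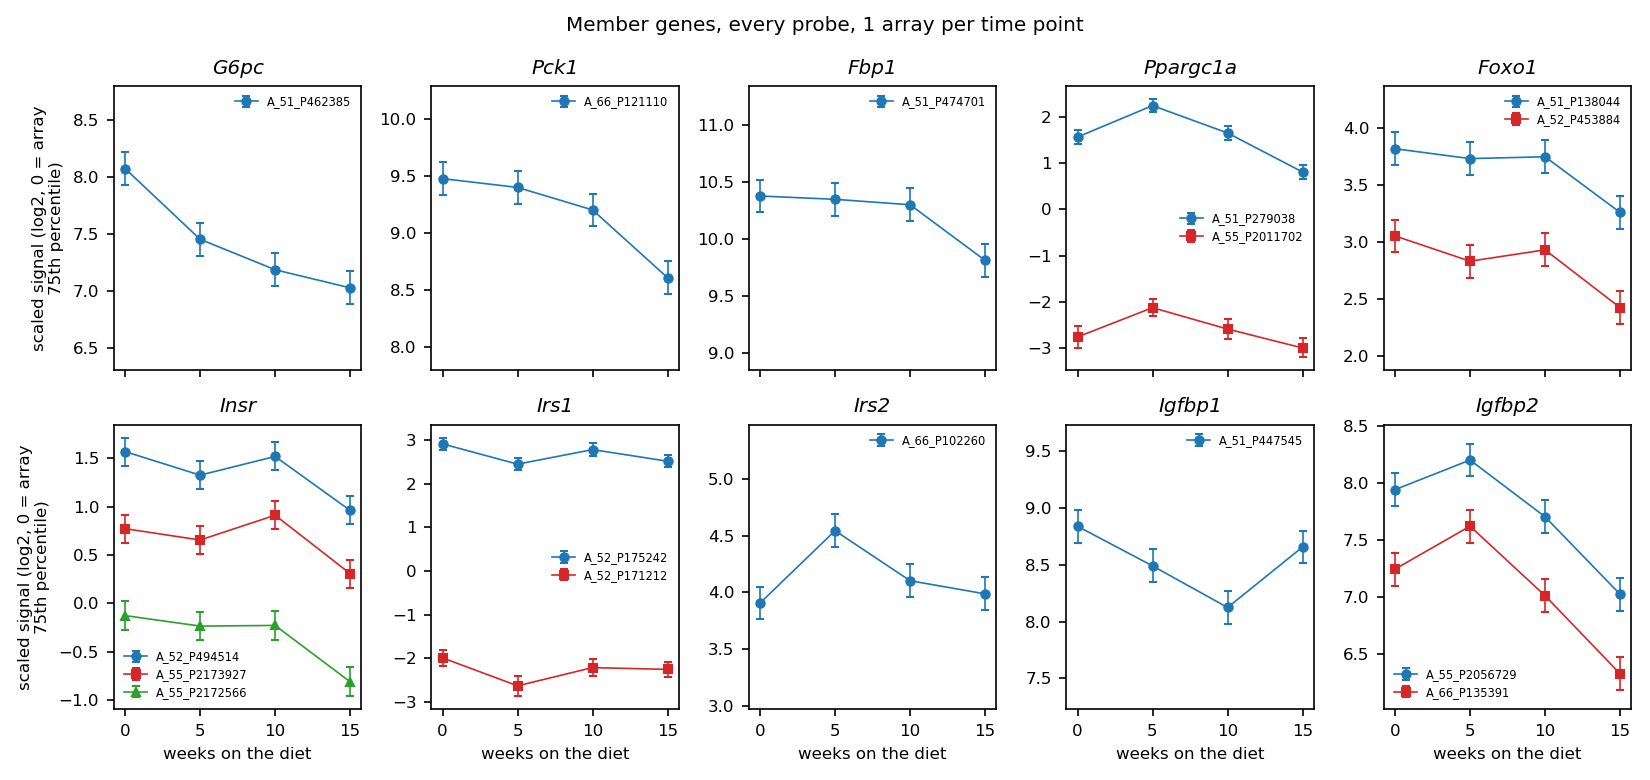
Scaled signal (log2, where 0 is the 75th percentile of the array) of every probe of the 10 genes against weeks on the diet, with 1 point per array and bars for the spot error given by the scanner software; each panel has its own log axis. As scaled to the 75th percentile, G6pc was lower at each later time and ended at 7.03, while Ppargc1a, Irs2 and Igfbp2 were highest at 5 weeks.

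As scaled, G6pc at 15 weeks lay furthest from its 0-week level among the 10 genes. Its processed signal was 56231 at 0 weeks, 36446 at 5 weeks, 28236 at 10 weeks and 35451 at 15 weeks, and after scaling the log2 values were 8.08, 7.46, 7.19 and 7.03. The 0-week array was the highest on both scales, whereas the order of 10 and 15 weeks came from the scaling, since the 15-week array was brighter as a whole. As scaled, G6pc was 1.54-fold lower at 5 weeks (log2 difference −0.62 ± 0.20), 1.85-fold lower at 10 weeks (−0.89 ± 0.20) and 2.07-fold lower at 15 weeks (−1.05 ± 0.20). Relative to the median gene it stood at −0.88 at 10 weeks and −0.80 at 15 weeks, both inside 2-fold. With quantile normalization it stood at −0.85 and −0.54, so in both settings 10 weeks was the lower time. Under the 7 other scalings it was lower than at 0 weeks at all 3 times, but 0 of the 7 kept it past 2-fold at 15 weeks, where it came to −0.43 with spike-in scaling. At 10 weeks 343 of 17143 measured genes lay further below 0 weeks than G6pc.

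Pck1 and Fbp1 stayed closer to their starting levels for 10 weeks. Pck1 read 9.48, 9.40, 9.20 and 8.61 on the scaled log2 scale at 0, 5, 10 and 15 weeks, lowest at 15 weeks. Its differences from 0 weeks were −0.08 ± 0.20, −0.28 ± 0.20 and −0.87 ± 0.20, the last being −0.62 relative to the median gene and 1.83-fold lower as scaled, but −0.29 with quantile normalization and −0.25 with spike-in scaling. On the 5-week array 12 of the 44 spots around the Pck1 spot were locally bright, meaning at least 2-fold above their mean on the other arrays. At 5 weeks Pck1 was higher than at 0 weeks with spike-in scaling.
Fbp1 read 10.38, 10.35, 10.30 and 9.81, and its differences were −0.03 ± 0.20, −0.08 ± 0.20 and −0.57 ± 0.20, or −0.32 relative to the median gene at 15 weeks. At 15 weeks Fbp1 was above 0 weeks under 3 alternatives, spike-in scaling (0.06), quantile normalization (0.04) and normexp background correction (0.08), so its direction depends on the setting. Because G6pc and Fbp1 are read on the same arrays, the gap between their changes does not depend on the scaling factor: G6pc lay 0.59 ± 0.29 further below 0 weeks than Fbp1 at 5 weeks and 0.48 ± 0.29 further below at 15 weeks.

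Ppargc1a is the coactivator that links cyclic AMP signals to gluconeogenic and mitochondrial genes. As scaled, it was highest at 5 weeks and lowest at 15 weeks on both of its probes. The brighter probe, A_51_P279038, read 1.56, 2.24, 1.65 and 0.81 at 0, 5, 10 and 15 weeks, and the dimmer one, A_55_P2011702, followed the same order. At 5 weeks it was 1.60-fold higher than at 0 weeks on the brighter probe (0.68 ± 0.20) and 1.55-fold higher on the dimmer one (0.63 ± 0.30). Between 5 and 15 weeks the brighter probe was 2.71-fold lower (−1.44 ± 0.20, or −1.22 relative to the median gene) and the dimmer one 1.83-fold lower (−0.87 ± 0.28). The brighter probe stayed past 2-fold lower in this comparison under all 7 other scalings, the smallest being −1.10 with spike-in scaling, while the dimmer one lay inside 2-fold as scaled. By the brighter probe 343 of 17422 measured genes lay further below. At 15 weeks the 2 probes differed in size against 0 weeks, at −0.76 ± 0.20 and −0.24 ± 0.31, the former being −0.51 relative to the median gene. The −0.24 of the dimmer probe stood beside −0.25 for the median gene. The processed signal of that probe was 30.8 at 0 weeks, 32.2 at 10 weeks and 34.0 at 15 weeks, so its 15-week low came from the scaling.

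The markers of another cell type moved on the 5-week array too. Of 7 adipocyte markers 3, 6, 3 and 3 were above background at 0, 5, 10 and 15 weeks, and Adipoq, Plin1 and Retn, which mark fat cells, were above it at 5 weeks and on no other array, while Lep was below it on all 4. The summed scaled signal of the 7 was 26.3, 75.1, 38.6 and 79.5, so the 5-week and 15-week arrays were the high ones. Nearly all of that sum came from Cidec, Cfd and Fabp4, which were above background on all 4 arrays, and Cidec was the largest part at 5 and at 15 weeks. Adipoq, Plin1 and Retn added little to it at 5 weeks and were below background at 15 weeks. The sum is therefore not read as an amount of fat cells. Fat cells also express Ppargc1a, Pck1 and Irs2, and the part of these markers in the 5-week values was not tested.

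Foxo1, the factor that insulin removes from the nucleus, read 3.82, 3.73, 3.75 and 3.26 on its brighter probe and 3.06, 2.83, 2.93 and 2.42 on the other. Over the first 10 weeks its differences from 0 weeks lay between −0.22 and −0.07, of which the −0.22 of the dimmer probe at 5 weeks was just past its spot error of 0.20. At 15 weeks both probes were lower, by −0.56 ± 0.20 and −0.63 ± 0.20, and the brighter one lay −0.31 from 0 weeks relative to the median gene. With spike-in scaling it stood at 0.06 at 15 weeks, above 0 weeks.

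The insulin receptor and its adaptors did not share a course. Insr, the receptor kinase, read 1.57, 1.33, 1.52 and 0.96 on its brightest probe, and its 3 probes gave differences from −0.68 to −0.46 at 15 weeks. The brightest stood at −0.36 relative to the median gene there and at 0.01 with spike-in scaling. Irs1 read 2.92, 2.45, 2.79 and 2.52, and it was 1.38-fold lower at 5 weeks on this probe (−0.47 ± 0.20) and 1.56-fold lower on the dimmer one (−0.64 ± 0.30). The lower Irs1 value at 5 weeks held in direction under all 7 other scalings. At 15 weeks the brighter probe lay −0.40 from 0 weeks, −0.15 relative to the median gene and 0.23 with spike-in scaling.
Irs2, the adaptor whose own transcription insulin lowers, read 3.91, 4.54, 4.10 and 3.99, with the 5-week array the highest. It was 1.55-fold higher at 5 weeks than at 0 weeks (0.64 ± 0.20), with the same direction under all 7 other scalings, and stood at 0.20 ± 0.20 at 10 weeks and 0.08 ± 0.20 at 15 weeks. At 15 weeks it was the only one of the 10 genes above its 0-week level as scaled, and relative to the median gene it lay at 0.33. The 2 adaptors moved apart at 5 weeks, where the change of Irs2 exceeded that of Irs1 by 1.10 ± 0.29.

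The IGF binding proteins, which the liver secretes and which hold IGF in the blood, followed different courses. Igfbp1, a target of Foxo1 that insulin lowers, had processed signals of 95273, 74647, 54038 and 109556 and scaled values of 8.84, 8.49, 8.12 and 8.66 at 0, 5, 10 and 15 weeks. The 10-week array was the lowest, 1.64-fold below 0 weeks (−0.71 ± 0.20), and lower under all 7 other scalings. From 10 to 15 weeks Igfbp1 was the only one of the 10 genes that was higher as scaled, by 0.53 ± 0.20. Relative to the median gene it stood at 0.77, and Irs2 at 0.13 and G6pc at 0.08 were above the median gene too. At 15 weeks it lay −0.18 ± 0.20 from 0 weeks, a direction that turned under 5 of the 7 other scalings.

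Igfbp2, which circulates at lower levels in people with obesity, is shown with the probe that reads the end of its coding sequence. The probe lies at chr1:72898677-72898736 on the plus strand in build mm9, and its last 3 bases, in capitals, are the stop codon.
Igfbp2, A_55_P2056729: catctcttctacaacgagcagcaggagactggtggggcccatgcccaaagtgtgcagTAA
This probe read 7.94, 8.20, 7.70 and 7.02 at 0, 5, 10 and 15 weeks, and the other probe of Igfbp2 read 7.24, 7.62, 7.01 and 6.32. Both were highest at 5 weeks and lowest at 15 weeks. Against 0 weeks they were 1.89-fold lower at 15 weeks on each probe (−0.92 ± 0.20), or −0.67 relative to the median gene. Against 5 weeks they were 2.27-fold lower (−1.18 ± 0.20) and 2.46-fold lower (−1.30 ± 0.20), and relative to the median gene the first stood at −0.97, just inside 2-fold. The direction held under all 7 other scalings, and 3 of them kept it past 2-fold. The change of Igfbp2 from 5 to 15 weeks lay 1.35 ± 0.29 below that of Igfbp1.

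**Figure D2:**
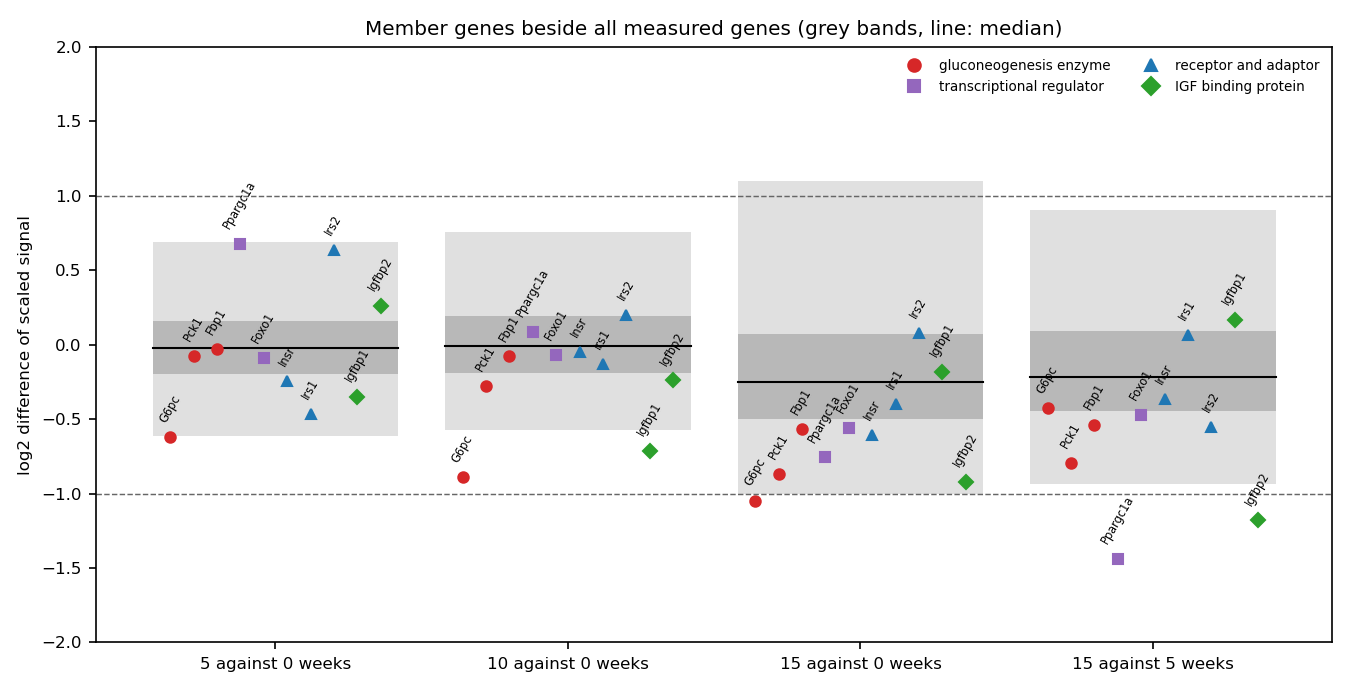
Log2 difference of scaled signal of each of the 10 genes (brightest probe, coloured by role) in 4 comparisons of 2 arrays, over the middle 90% (light grey) and 50% (dark grey) of all measured genes, with their median as a line and 2-fold as dashed lines. At 15 against 0 weeks 9 of the 10 genes lie below 0, where the median gene lies at −0.25; Ppargc1a and Igfbp2 lie past 2-fold in the last comparison.

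Of 19 further enzymes and carriers of the gluconeogenic route 17 were measured at 0 and 15 weeks, and 3 of these were lower past 2-fold, none was higher past it and the other 14 lay inside it. Of all measured genes 5.03% were lower and 5.76% higher past 2-fold. The median of the 17 was −0.57 beside −0.25 for all genes, a distance of −0.32, but the distance was 0.06, above the median gene, with quantile normalization. With spike-in scaling the median of the list was 0.05, above 0 weeks. The 10 hepatocyte markers lay lower still as scaled, with a median of −0.67, or −0.42 relative to the median gene, and the brightest 1757 genes lay at −0.44. Their part in the values of the list was not tested. Slc37a4, which carries glucose-6-phosphate to G6pc inside the endoplasmic reticulum, read 6.62, 5.66, 5.60 and 4.74 at 0, 5, 10 and 15 weeks. It was 1.95-fold lower at 5 weeks, 2.03-fold at 10 weeks and 3.67-fold at 15 weeks, or −1.63 on the log2 scale at 15 weeks relative to the median gene. The 15-week call held under all 7 other scalings and the 10-week call under 5 of them, and the latter was also lost with the mean of probes. Its dimmer probe, not well above background on all arrays, lay at −0.96 at 15 weeks. Got1, the cytosolic aspartate aminotransferase, read 8.02, 8.03, 7.26 and 6.49 and was 2.90-fold lower at 15 weeks (−1.29 relative to the median gene), past 2-fold under the other scalings except spike-in scaling. Mdh1, the cytosolic malate dehydrogenase, was 2.10-fold lower at 15 weeks (−0.82 relative to the median gene), a call that 0 of the 7 other scalings kept. Pcx, pyruvate carboxylase, which feeds Pck1, lay at −0.16, −0.52 and −0.96 at 5, 10 and 15 weeks, inside 2-fold, and at −0.71 at 15 weeks relative to the median gene.

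**Figure D3:**
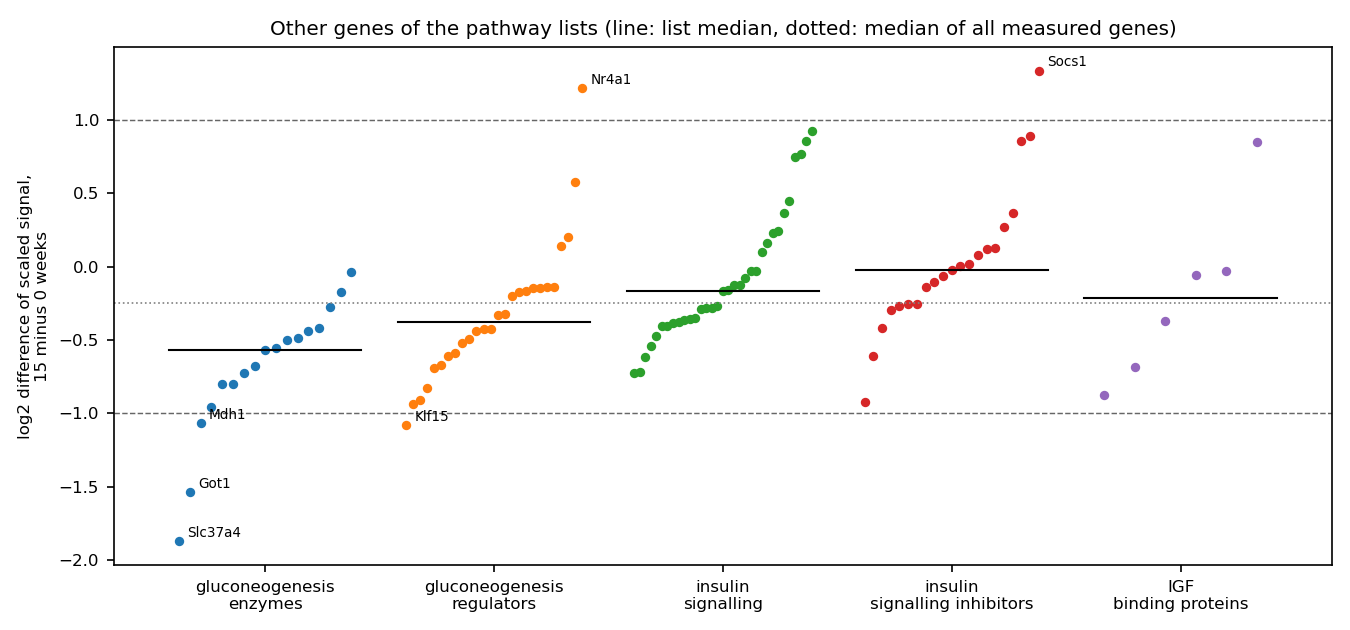
Log2 difference of scaled signal between 15 and 0 weeks for the other measured genes of 5 lists, 1 point per gene, with the list median as a solid line, the median of all measured genes as a dotted line and 2-fold as dashed lines; genes past 2-fold are named. The 17 gluconeogenic genes all lie below 0, down to Slc37a4 at −1.87, while the medians of the 2 insulin lists lie at −0.17 and −0.02.

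Of 28 further regulators of gluconeogenesis 26 were measured at 15 weeks, and 1 was higher and 1 lower past 2-fold, with a median of −0.38. Of all measured genes 5.76% were higher and 5.03% lower past 2-fold. Nr4a1, an orphan nuclear receptor induced by cyclic AMP and stress, read 3.40, 3.25, 3.83 and 4.62 and was 2.33-fold higher, but 7 of the 44 surrounding spots were locally bright at 15 weeks, and with such spots left out it has no value. Klf15, a factor for amino acid use in gluconeogenesis, was 2.12-fold lower (−0.83 relative to the median gene), which 3 of the 7 other scalings kept. At 5 weeks Sik1, a kinase that restrains the cyclic AMP response, was 2.09-fold lower and the 1 regulator of 26 past 2-fold, while at 10 weeks 0 of 26 were. Of all measured genes 3.87% were past 2-fold at 5 weeks and 4.45% at 10 weeks. The Sik1 call was lost with normexp, where 0 of 26 regulators were past 2-fold, and with spike-in scaling. With spike-in scaling alone Txnip, an inhibitor of thioredoxin, was past 2-fold higher instead. Ppargc1b, a relative of Ppargc1a, was well above background at 0 and 5 weeks and not at 10 or 15 weeks. As scaled, its 0-week value lay 2.28-fold, or 1.19 on the log2 scale, above the dimmest value well above background on the 15-week array. That is a rough bound on its fall at 15 weeks, since the background call is made spot by spot. It is not centred on the median gene, which lay at −0.25, and relative to that gene the bound lies inside 2-fold. The 0-week value, −2.92, was itself near the dimmest value well above background on its array, −3.59. Gcgr, the glucagon receptor, lay at −0.43 at 15 weeks, or −0.18 relative to the median gene.

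The relay below the insulin receptor stood near the median gene. Of 33 further genes, among them the kinases Akt1 and Akt2 and the subunits of the lipid kinase that activates them, 0 were past 2-fold at 10 weeks and 0 at 15 weeks. Of all measured genes 4.45% and 10.8% were. The median of the 33 genes at 15 weeks was −0.17. At 15 weeks 4 of the 33 were higher past 2-fold relative to the median gene and 5 with spike-in scaling, Pik3r3 among them in both. Of all 17562 measured genes 1424 and 2424 were higher past 2-fold in these settings, so nothing is read from the counts. At 5 weeks 1 of 32 was higher, where 2.3% of all measured genes were. This was Irs4, an adaptor little used by the liver, higher by 2.06-fold, a call that 4 of the 7 other scalings kept. At that time 6 of the 44 spots around it were locally bright. Akt2, the main Akt of the liver, differed from 0 weeks by 0.04, 0.11 and −0.38 at 5, 10 and 15 weeks, the last being −0.13 relative to the median gene.

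Among 22 inhibitors of insulin signalling the cytokine-induced suppressors Socs1 and Socs3 were the ones past 2-fold from 0 weeks as scaled. Of 20 measured at 5 weeks 0 were, of 19 at 10 weeks 2 were higher, and of 21 at 15 weeks 1 was higher. Of all measured genes 2.3%, 2.92% and 5.76% were higher past 2-fold at 5, 10 and 15 weeks. Socs1 read −2.16, −1.44, −0.94 and −0.82 and was 2.32-fold higher at 10 weeks and 2.53-fold at 15 weeks. The 10-week call was lost with spike-in scaling and both calls with normexp. Socs3 read 1.24, 2.23, 2.73 and 2.10 and was 2.80-fold higher at 10 weeks, where 13 of the 44 surrounding spots were locally bright, and with such spots left out it has no value. At 15 weeks 3 inhibitors were higher past 2-fold, Socs1, Socs3 and Trib2, a pseudokinase of the Tribbles family, when scaled to detected probes, with spike-in scaling or relative to the median gene. In these settings 1339, 2424 and 1424 of all 17562 measured genes were higher past 2-fold. As scaled Trib2 lay at 0.89. Macrophage markers moved beside them: all 8 were above background on every array, and their summed scaled signal was 94.6, 176.8, 204.3 and 224.8 at 0, 5, 10 and 15 weeks. Their part in the Socs1 and Socs3 values was not tested. Grb14, which blocks the receptor kinase, lay at −0.92 at 15 weeks, or −0.67 relative to the median gene.

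Of 7 further genes of the IGF system 6 were measured, and the 1 past 2-fold from 0 weeks as scaled was Igfbp5, 2.30-fold higher at 5 weeks. Of all measured genes 2.3% were higher past 2-fold at that time. The Igfbp5 call was lost with normexp. At 15 weeks Igfbp5 was 0.85 higher on the log2 scale, which is past 2-fold relative to the median gene (1.10). It stayed inside 2-fold there with the array median, quantile normalization and normexp. Igfbp3 lay at −0.98 at 10 weeks, and past 2-fold lower with the array median, quantile normalization and spike-in scaling. Igf1, the growth factor itself, lay at 0.14, −0.03 and −0.68 on its brightest probe, and Igfals, which stabilises it in the blood, at 0.26, 0.55 and −0.88. Relative to the median gene they lay at −0.43 and −0.63 at 15 weeks. The dimmer Igf1 probes ranged from 0.16 to 0.67 at 5 weeks, from −0.01 to 0.47 at 10 weeks and from −0.76 to −0.25 at 15 weeks. As scaled, G6pc was the only one of the 10 genes 2-fold from 0 weeks, a call that 0 of the 7 other scalings kept. The course of its 3 differences was nearest, of 12690 genes well above background on all arrays, to those of Tesmin, Tymp and Fbxl22. They lay at distances of 0.11, 0.11 and 0.12 on the log2 scale over 3 differences that share the 0-week array. These distances are below the spot error of a single G6pc difference, 0.20, so which genes are nearest is not resolved. At 15 weeks Tesmin lay at −1.05 and Tymp at −0.97.

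**Figure D4:**
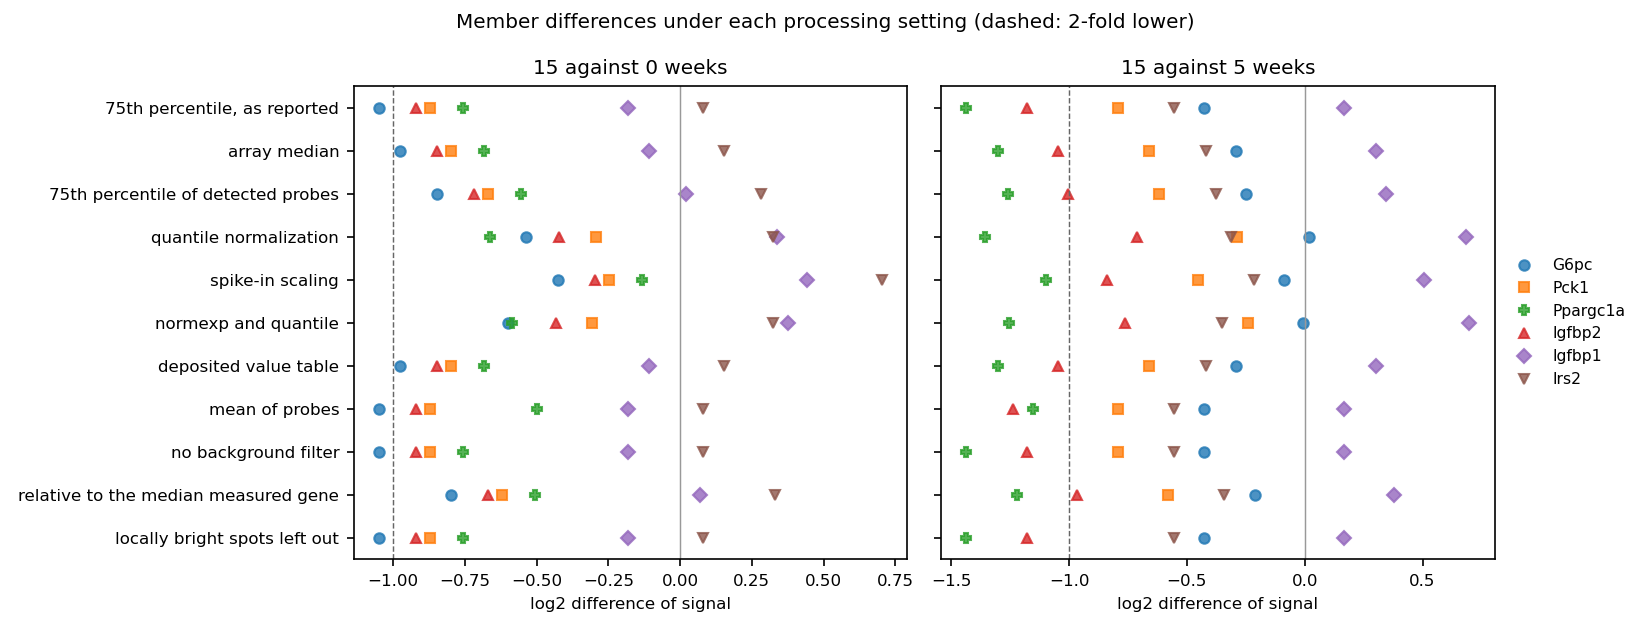
Log2 difference of 6 of the genes for 15 against 0 weeks (left) and 15 against 5 weeks (right) under each way of processing the arrays, 1 point per gene and setting, with the dashed line at 2-fold lower. G6pc passes 2-fold in the left panel only with the 75th percentile over all spots, and Ppargc1a passes it in the right panel at every setting, between −1.44 and −1.10 (with the mean of probes its point is the average of both probes).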

How the data were processed

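Per the labels' protocols, total RNA of frozen liver was amplified and labelled with Cy3. Per the file headers, each scanner file holds intensity values from Agilent Feature Extraction version 10.7.3.1: a processed signal per spot with background and spatial trend subtracted, the mean intensity before correction and the intensity around the spot. The authors also deposited a table of intensity values on a linear scale, which equal the processed signal divided by the median of each array over non-control spots, so the median of every column is 1, genes are not centred and higher means brighter.

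The processed signal was divided by the 75th percentile of 59305 non-control spots per array (208.2, 207.7, 193.7 and 271.6 at 0, 5, 10 and 15 weeks), and log2 was taken. Outlier spots were left out, spots of a probe were averaged, and each gene was read from the probe with the highest average on the 4 arrays. Measured genes were those well above background on both arrays compared, and different ones lay past 2-fold. No statistical test was possible. The median SD over spots of repeated probes was 0.064 to 0.073 on the log2 scale, and the number of arrays limits the precision. Neighbours are the 44 spots around a spot, bright when at least 2-fold above their mean over the other arrays.

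Probes were named by RefSeq accession (27509), symbol (3549) or older symbol (404) on assembly GRCm38.p6, and 24219 kept the name in the file. Probe positions are those of the files, in build mm9. The 10 genes and the lists were chosen with earlier results of these data known. Named from the lists were at most the 3 furthest genes past 2-fold in each direction and time, and for each of the 10 genes past 2-fold from 0 weeks the 3 nearest courses. Pcx, Gcgr, Akt2, Pik3r3, Grb14, Trib2, Txnip, Igf1, Igfals, Igfbp3 and Ppargc1b were added after their values were seen. Calling was tested on simulated data. Python 3.11.15 with numpy 2.4.6 and pandas 2.3.3 was used, and R 4.3.3 with limma 3.58.1 for normexp. Alternatives were 4 other scalings, normexp with an offset of 50, the deposited table, the mean of probes, no background filter, the median gene as centre, and locally bright spots left out.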

Additional observations from a re-analysis of the deposited data

How the results depend on the processing

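No paired analysis was possible because each time point has 1 array. Of the 10 genes, the number at least 2-fold different was 0 at 5 weeks against 0 weeks under the main setting and all 10 alternatives. At 10 weeks it was 0, but 2 with spike-in scaling, both lower, G6pc and Igfbp1. At 15 weeks against 0 weeks it was 1, and it was 0 with scaling to detected probes, quantile normalization, the array median, spike-in scaling, normexp, the deposited table and centring on the median gene. At 15 weeks against 5 weeks it was 2, and it was 1 with quantile normalization, spike-in scaling, normexp and the median gene as centre. Leaving out locally bright spots removed Pck1 at 5 weeks and Ppargc1a and Irs1 at 10 weeks. Of the values of single genes 309 moved by less than their spot error and 87 by more, 40 of them with spike-in scaling, and no value past 2-fold changed direction. Over all genes, 662, 763, 1895 and 1459 were 2-fold different at 5, 10 and 15 weeks against 0 weeks and at 15 against 5 weeks. With normexp these counts were 276, 341, 980 and 737, with no background filter 3456, 3791, 5341 and 4888, and at 10 weeks 1241 with spike-in scaling. The share of higher genes among them was 59.5%, 65.5%, 53.4% and 48.7%, and 85.1%, 13.1%, 90.0% and 77.9% with spike-in scaling. It was 54.3% at 10 weeks with the array median. At 15 against 0 weeks it was 71.2% when scaled to detected probes, 67.3% with normexp and 74.6% with the median gene as centre. At 15 against 5 weeks it was 62.2%, 65.7%, 61.9% and 68.9% with the array median, detected probes, normexp and the median gene. The cause of these moves was not tested.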

Other observations

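Between 5 and 15 weeks, both adult time points, further genes of the lists stood past 2-fold as scaled, chosen here after their values were seen. Crebbp, a coactivator acetyltransferase of the cyclic AMP response, was higher by 1.29 on the log2 scale on its brighter probe and lay at −0.30 on the dimmer one, and it was not past 2-fold with the mean of probes. Nr4a1 was higher by 1.37 and has no value with locally bright spots left out. Got1 was lower at −1.55, past 2-fold under all 7 other scalings. Foxo3, a relative of Foxo1, was lower at −1.22, past 2-fold under 6 of the 7 and lost with spike-in scaling. Irs4 was lower at −1.40, a call lost with normexp and with locally bright spots left out. Igfals was lower at −1.13, a call that 0 of the 7 other scalings kept. The median of all measured genes in this comparison was −0.21.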
